A study of Mus musculus with 16 samples.

Results

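The genes described here are 9 heavy chain genes of MHC class I and B2m, their shared light chain: H2-K1, H2-D1, H2-T3, H2-T10, H2-T22, H2-T23, H2-Q4, H2-Q7, H2-Q10 and B2m. They were taken by symbol from the table of 48709 gene identifiers, and all 10 were found in it. The members were chosen by family, and the family was selected on a measured value, the difference of H2-T3 between knockout and wild type liver in an earlier look at the same counts, so the values of that comparison are given as a description and without a test. Reads were counted per gene in RNA of heart and liver of 8 untreated female C57BL/6J mice, aged 3 to 6 months. The 4 groups of 4 libraries were QKO heart, WT heart, QKO liver and WT liver. QKO denotes the quadruple knockout of the known methionine sulfoxide reductases, enzymes that repair oxidised methionine residues of proteins, and WT denotes wild type mice given the same strain name. Heart and liver came from the same animals. Neither the alleles nor the parts of the genes that were deleted, nor littermate status, are given in the labels, so a difference in linked DNA between QKO and WT mice cannot be told apart from the loss of the enzymes.

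MHC class I molecules are cell surface proteins made of a heavy chain, B2m and a short peptide, and they show samples of a cell's own proteins to T cells and NK cells. Peptides are cut by the proteasome, carried into the endoplasmic reticulum by the TAP transporter and loaded with the help of tapasin and chaperones. The classical heavy chains, H2-K1 and H2-D1 in this strain, vary greatly between mouse strains and present peptides to CD8 T cells. The nonclassical ones are mostly less variable, and each has a narrower role. The liver is rich in sinusoidal endothelium and macrophages that carry class I molecules, and mouse hepatocytes secrete the soluble heavy chain H2-Q10 into the blood, whereas heart muscle cells are known for low class I levels.

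In these coordinates of the GRCm38 assembly (GENCODE M21), the heavy chains lay in one region of chromosome 17. H2-K1 (chr17:33996017-34000347) stood at one end, and H2-D1 (chr17:35262730-35267499) on the far side of the class II and class III genes. Next came the Q genes H2-Q4 (chr17:35379617-35385290), H2-Q7 (chr17:35439155-35443773), which is among the genes that encode the Qa-2 antigen, and H2-Q10 (chr17:35470089-35474563). Beyond them lay the T genes H2-T23 (chr17:36029773-36032855), which encodes Qa-1, the ligand of the CD94/NKG2A receptor, and H2-T22 (chr17:36037128-36042747), a ligand of gamma delta T cells. Further along stood its close copy H2-T10 (chr17:36115876-36121465), annotated as a polymorphic pseudogene, and H2-T3 (chr17:36185572-36190287), which encodes the thymus leukemia (TL) antigen, a ligand of CD8 alpha homodimers known mainly from intestinal epithelium and thymocytes. B2m was the exception, on chromosome 2 (chr2:122147686-122153083). The heavy chain genes began 9.25 to 11.4 Mb from Msrb1, 1 of the 4 reductase genes.

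Since heavy chain genes are known to share promoter elements, the promoter windows of 4 members are shown: the classical H2-K1, the liver product H2-Q10, H2-T3 with its QKO liver counts, and B2m. Each window covered 250 bases before the annotated start and 50 from it on, read 5′ to 3′ on the strand of the gene, and came from RefSeq on GRCm38.p6. Capitals mark letters matched by any of 4 motifs on either strand, and in these windows no match to one motif overlapped a match to another. The motifs were AANTGAAA, the core of the interferon-stimulated response element, TGACG, the core of the cAMP response element, CCAAT, and the NF-kappaB consensus. The windows lay at chr17:34000298-34000597 (reverse strand), chr17:35469839-35470138 (forward strand), chr17:36190102-36190401 (reverse strand) and chr2:122147437-122147736 (forward strand).
H2-K1: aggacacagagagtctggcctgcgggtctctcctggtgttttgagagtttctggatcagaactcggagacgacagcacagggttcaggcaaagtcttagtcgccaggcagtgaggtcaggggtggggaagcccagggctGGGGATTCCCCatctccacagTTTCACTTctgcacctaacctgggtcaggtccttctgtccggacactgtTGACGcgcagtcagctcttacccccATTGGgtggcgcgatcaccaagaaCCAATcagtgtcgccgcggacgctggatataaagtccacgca
H2-Q10: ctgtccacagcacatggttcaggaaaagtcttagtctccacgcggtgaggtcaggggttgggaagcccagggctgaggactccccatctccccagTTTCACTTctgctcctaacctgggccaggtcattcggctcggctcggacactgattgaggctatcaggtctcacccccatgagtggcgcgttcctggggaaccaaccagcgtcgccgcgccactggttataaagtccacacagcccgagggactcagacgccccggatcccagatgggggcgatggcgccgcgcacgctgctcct
H2-T3: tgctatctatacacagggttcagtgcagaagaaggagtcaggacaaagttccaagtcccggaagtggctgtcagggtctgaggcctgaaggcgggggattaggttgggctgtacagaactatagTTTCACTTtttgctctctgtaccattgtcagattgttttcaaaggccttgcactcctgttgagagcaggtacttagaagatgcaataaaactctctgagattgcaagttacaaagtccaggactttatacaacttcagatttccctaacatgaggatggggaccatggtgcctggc
B2m: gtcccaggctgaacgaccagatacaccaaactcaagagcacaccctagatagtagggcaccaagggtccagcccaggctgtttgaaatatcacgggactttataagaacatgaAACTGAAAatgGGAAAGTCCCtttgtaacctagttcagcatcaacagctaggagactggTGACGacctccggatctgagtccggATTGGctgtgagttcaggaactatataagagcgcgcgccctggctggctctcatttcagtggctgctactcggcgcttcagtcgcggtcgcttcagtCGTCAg

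The H2-K1 window held all 4 motifs, as did those of H2-D1, H2-T22, H2-Q4, H2-Q7 and B2m. In the H2-Q10 and H2-T3 windows only the interferon element matched, and in that of H2-T23 only CCAAT did. Among all 32851 promoter windows of the same length, 6.58% held AANTGAAA, 8.46% the NF-kappaB consensus, 20.8% TGACG and 37.4% CCAAT. Of the 10 members, 9 had a window in the RefSeq table, H2-T10 having none. A match is a description of letters and not a binding site, and a missing match says only that these letters were not in the window.

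Total counts were 42.1 M to 72.6 M in heart libraries and 37.9 M to 67.9 M in liver libraries. Counts of protein-coding genes came to 9.21 M to 28.2 M in heart, since ribosomal RNA took 31.4% to 56.9% of 6 heart libraries, against 0.245% of QKO heart 4 and 7.37% of WT heart 4. Sums of cell type markers are given per 1 M protein-coding counts, whereas levels of single genes are given as CPM, counts per 1 M on scaled library sizes. Pancreatic acinar transcripts (4 markers) summed to 696 in WT liver 3 and 217 in WT liver 4, and to 6.23 to 11.9 in the other 6 liver libraries. The reductase genes were read to check the labels. Msrb2 had 0.0842 to 0.167 CPM per kb in QKO hearts against 8.72 or more in WT hearts, and 0 to 0.0334 in QKO livers against 1.83 to 4.53 in WT livers. Msrb3 had 1.84 to 2.15 CPM per kb in QKO hearts against 11.5 to 12.4 in WT hearts, and 0.414 to 0.758 in QKO livers against 1.92 to 2.66 in WT livers. Msra differed by less (log2 fold change -0.52 in heart and -0.72 in liver, QKO over WT). Msrb1 was higher in QKO hearts (0.48, 95% interval 0.30 to 0.66) and lower in QKO livers (-0.39, -0.77 to -0.01). Whole-gene counts of these 2 thus check little without the deleted part.

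How much of each member was there was read per length, as CPM per kb of exon, so that genes of different length can be compared. The length was that of all annotated exons merged, such as 2938 bases for H2-K1, 4348 for H2-Q10 and 860 for B2m. It need not be that of the transcripts present, and the order, shares and ratios below depend on it. In plain CPM, H2-K1 and H2-Q10 stood at 782 and 748 in QKO livers. B2m had the highest level of the 10 in all 4 groups, 83.1 ± 13.5 CPM per kb in QKO hearts, 81.5 ± 11.4 in WT hearts, 618 ± 77.3 in QKO livers and 649.6 ± 204 in WT livers (SD, n = 4 each). It ranked 117 among 14678 protein-coding genes in WT heart and 32 in WT liver. The sum of the heavy chains was 41.3 ± 6.6 CPM per kb in QKO hearts and 40 ± 7.41 in WT hearts, and 651 ± 109 in QKO livers and 559.7 ± 68.2 in WT livers. B2m thus stood above the whole heavy chain sum in every heart library, at 1.98 to 2.04 times it in QKO hearts and 1.9 to 2.22 times in WT hearts. In liver this ratio was lower and less even, 0.83 to 1.17 in QKO livers and 0.917 to 1.67 in WT livers.

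In liver the order of the heavy chains per length was H2-K1, H2-Q10, H2-D1, H2-T23, H2-T22, H2-Q4, H2-Q7, H2-T10 and H2-T3, the same in both genotypes. H2-K1 had 266 ± 44.3 CPM per kb in QKO livers and 226 ± 24.3 in WT livers, rank 79 and 89 of 14678 protein-coding genes. H2-Q10 had 172 ± 40.8 in QKO livers and 142 ± 23.3 in WT livers, and H2-D1 133 ± 19.9 in QKO livers and 119 ± 12.8 in WT livers. Although the ranges of H2-Q10 and H2-D1 overlapped across libraries, H2-Q10 was the higher within every liver library but QKO liver 4 (128 against 135 CPM per kb). H2-Q4 and H2-Q7 also overlapped, at 6.22 ± 1.05 and 5.89 ± 1.04 CPM per kb in QKO livers and 5.88 ± 0.358 and 4.75 ± 1.54 in WT livers. H2-Q4 was the higher within every liver library but QKO liver 1 and WT liver 1. H2-T23 lay between H2-D1 and these, with 52.7 ± 7.01 in QKO livers and 48.3 ± 8.97 in WT livers. H2-T22 followed it with 14.2 ± 3.03 in QKO livers and 13.4 ± 2.76 in WT livers. At the low end, H2-T10 had 0.54 ± 0.0839 CPM per kb in QKO livers and 0.498 ± 0.103 in WT livers. H2-T3 had 0.354 ± 0.205 in QKO livers, where its libraries overlapped those of H2-T10, and 0.00515 ± 0.00708 in WT livers.

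In heart the order was another one. H2-D1 was the first heavy chain per length, with 19 ± 3.28 CPM per kb in QKO hearts and 18.7 ± 3.39 in WT hearts, and H2-K1 the next, with 14.5 ± 2.52 in QKO hearts and 13.8 ± 2.78 in WT hearts. Although the ranges of both genes overlapped across libraries, H2-K1 stood at 0.752 to 0.771 times H2-D1 within the 4 QKO hearts and at 0.705 to 0.758 times within the 4 WT hearts. In livers the same ratio was 1.87 to 2.08 in QKO animals and 1.75 to 2.08 in WT animals, so heart and liver did not overlap. H2-T23 and H2-Q4 came next and overlapped, with 2.5 ± 0.261 and 2.75 ± 0.426 CPM per kb in QKO hearts and 2.65 ± 0.407 and 2.45 ± 0.773 in WT hearts. H2-T22 had 1.58 ± 0.221 in QKO hearts and 1.45 ± 0.189 in WT hearts. H2-Q10 and H2-Q7 were low and overlapped, at 0.489 ± 0.188 and 0.408 ± 0.147 in QKO hearts and 0.534 ± 0.274 and 0.335 ± 0.133 in WT hearts. H2-T10 had 0.0861 ± 0.0166 in QKO hearts and 0.0807 ± 0.03 in WT hearts, and H2-T3 had no counts.

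Put as shares of the 9 heavy chains, the classical H2-K1 and H2-D1 made up 81% ± 1.47 of the RNA per length in QKO hearts and 81.2% ± 0.695 in WT hearts, against 61.4% ± 3.14 in QKO livers and 61.7% ± 1.89 in WT livers. The rest of the liver RNA was chiefly H2-Q10, with 26.3% ± 3.14 in QKO livers and 25.3% ± 1.54 in WT livers, while it held 1.2% ± 0.442 in QKO hearts and 1.42% ± 0.791 in WT hearts. H2-Q4 had the opposite pattern, 6.66% ± 0.571 in QKO hearts and 6.03% ± 0.815 in WT hearts, against 0.958% ± 0.0787 in QKO livers and 1.06% ± 0.0949 in WT livers. H2-T23 differed less, with 6.1% ± 0.468 and 6.65% ± 0.345 in QKO and WT hearts and 8.13% ± 0.449 and 8.57% ± 0.615 in QKO and WT livers. These shares describe RNA and not protein, and reads of near-identical stretches may have been assigned among the genes unevenly.

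**Figure D1:**
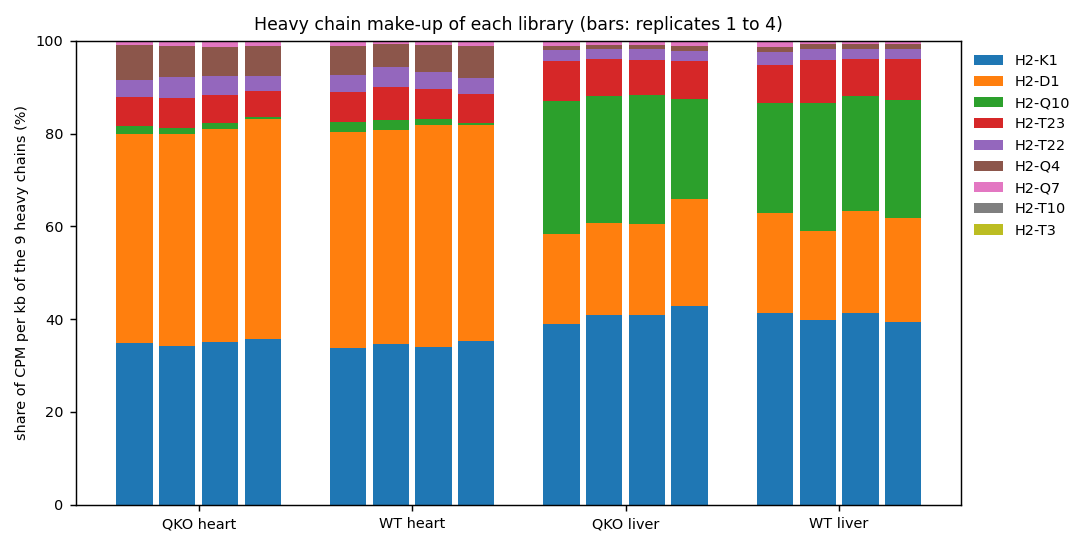
Share of each of the 9 heavy chains in their summed CPM per kb (y axis, %) in the 16 libraries, with 1 bar per library and 4 per group. The H2-Q10 band takes 21.7% to 28.6% of the QKO liver bars and 0.563% to 1.55% of the QKO heart bars, and the H2-D1 band is wider in hearts (45.2% to 47.4% in QKO) than in livers (19.4% to 22.9% in QKO).

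How far reads can be told apart differed among the members. Of all 75-base stretches of its transcripts, the read length of the study, H2-T3 and B2m shared 0% with transcripts of other genes, H2-K1 3.1%, H2-D1 5.4%, H2-T23 5.91% and H2-Q4 7.02%. The share was 12.5% for H2-Q10 (9.07% with H2-Q7), 17% for H2-Q7, 16% for H2-T10 (all with H2-T22) and 18.5% for H2-T22. These shares do not bound the error of a count, which also depends on the level of the partner gene. In QKO livers H2-Q10 had 748 CPM beside 25.1 for H2-Q7, and H2-T22 had 48.4 beside 1.85 for H2-T10. Values of those 4 are uncertain, and those of H2-Q7 and H2-T10 may be so by more than their shares. The part of partner reads in them was not tested. H2-T10, H2-T22 and H2-Q4 also overlap annotated genes on the opposite strand over 27.1%, 29.4% and 19.1% of their exon length, and the strand setting of the counting is not given in the sources used here.

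Heart was compared with liver in the QKO animals and, apart from them, in the WT animals, a contrast that the choice of the family did not use except for H2-T3 in QKO liver. All 9 members other than H2-T3 were lower in heart than in liver, in both genotypes and in 8 of 8 animals. The differences ran from 352-fold for H2-Q10 to 2.21-fold for H2-Q4 in QKO animals. In edgeR's quasi-likelihood test with Benjamini-Hochberg adjustment over all genes, 9 of 9 were past the threshold of 0.05 in the QKO comparison, where 37.1% of 18039 genes tested were called lower in heart and 37.2% higher. In the WT comparison it was also 9 of 9, where 36.9% of 18204 genes were called lower and 35.6% higher. The median log2 fold change of the 9 tested members was -3.18 in WT animals, beside -0.02 over all genes tested. Bulk RNA cannot tell fewer cells of a type from less RNA per cell, so these values are of whole tissue.

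H2-K1, the first of the classical chains, had 42.4, 32.3, 46.5 and 49.2 CPM in the 4 QKO hearts against 719, 691, 975 and 744 CPM in QKO livers. In WT animals it had 39.1, 35, 35.6 and 52.5 CPM in hearts against 693, 727, 563 and 676 CPM in livers. Every heart lay far below every liver, and the log2 fold change of heart over liver was -4.17 ± 0.20 (SE) in QKO animals and -4.02 ± 0.22 in WT animals (edgeR, adjusted p = 6.887e-10 and 2.787e-08). H2-D1, the other classical chain, had 48.3, 37.7, 53.3 and 57.2 CPM in QKO hearts against 314, 295, 411 and 349 CPM in QKO livers. Its WT hearts had 47.4, 40.8, 44.2 and 60.8 CPM against 316, 307, 261 and 339 CPM in WT livers. The tissues again did not overlap, with a log2 fold change of -2.77 ± 0.17 in QKO animals and -2.65 ± 0.18 in WT animals (edgeR, adjusted p = 8.854e-09 and 2.044e-07). The liver excess of H2-K1 was thus larger than that of H2-D1, and the 95% intervals of the log2 fold change, -4.59 to -3.74 and -3.13 to -2.40 in QKO animals, did not overlap.

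B2m, without which class I heavy chains do not reach the surface in stable form, had 71.5, 55.4, 76.9 and 82.3 CPM in QKO hearts against 451, 503, 579 and 592 CPM in QKO livers. It had 70.5, 58.9, 68.3 and 82.8 CPM in WT hearts against 819, 489.9, 433 and 492 CPM in WT livers. WT liver 1 stood above the other livers, and all hearts below all livers. The log2 fold change was -2.86 ± 0.17 in QKO animals and -2.98 ± 0.25 in WT animals (edgeR, adjusted p = 6.351e-09 and 8.535e-07), near that of H2-D1.

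H2-Q10, the secreted chain, showed the largest tissue difference of the 9. It had 2.79, 1.75, 2.82 and 1.15 CPM in QKO hearts against 778, 684, 977 and 556 CPM in QKO livers, and 3.48, 3.03, 1.98 and 0.805 CPM in WT hearts against 589, 739, 498 and 645 CPM in WT livers. The log2 fold change was -8.46 ± 0.36 in QKO animals and -8.06 ± 0.49 in WT animals (edgeR, adjusted p = 2.277e-10 and 6.576e-08). Read as a percentage of the liver level of the same animal, the heart level of H2-Q10 was 0.359, 0.257, 0.288 and 0.207 in the QKO animals and 0.591, 0.409, 0.397 and 0.125 in the WT animals. Hepatocyte markers (4 genes, none at 0), which heart cells should lack, summed to 158 to 336 per 1 M protein-coding counts in QKO hearts against 61663 to 76712 in QKO livers, and to 125 to 689 in WT hearts against 54233 to 68247 in WT livers. Alb stood at 0.388, 0.314, 0.251 and 0.196% of the liver level in QKO animals and at 1.14, 0.543, 0.485 and 0.195% in WT animals. Ttr stood at 0.336, 0.264, 0.196 and 0.142% in QKO animals and at 0.442, 0.461, 0.389 and 0.113% in WT animals. The heart numbered 4 was lowest for all 3 genes in each genotype. The part of liver RNA in the heart level of H2-Q10 was not tested.

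The other nonclassical chains were lower in heart by different amounts. H2-T23 had 6.1 to 7.71 CPM in QKO hearts against 134 to 178 in QKO livers, and 6.67 to 9.34 CPM in WT hearts against 106 to 168 in WT livers. That was a log2 fold change of -4.36 ± 0.15 in QKO and -4.17 ± 0.19 in WT animals, near that of H2-K1. H2-Q7 had 1.01 to 2.34 CPM in QKO hearts against 19 to 29.5 in QKO livers, a log2 fold change of -3.78 ± 0.23, and -3.73 ± 0.30 in WT animals. H2-T22 was at -3.14 ± 0.16 in QKO and -3.18 ± 0.17 in WT animals, and its copy H2-T10, at 0.244 to 0.374 CPM in QKO hearts against 1.57 to 2.1 in QKO livers, at -2.62 ± 0.25 in QKO and -2.52 ± 0.30 in WT animals. The adjusted p of these 4 genes was at most 1.489e-05 (H2-T10 in WT animals).

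H2-Q4 had the smallest tissue difference of the 9 members. It had 7.99, 5.58, 7.1 and 7.86 CPM in QKO hearts against 15.2, 13.3, 19.8 and 16.4 CPM in QKO livers, and 6.41, 4.44, 5.51 and 9.12 CPM in WT hearts against 15.5, 15.2, 14.1 and 16.3 CPM in WT livers. The groups did not overlap. The log2 fold change was -1.14 ± 0.15 in QKO animals and -1.23 ± 0.19 in WT animals (edgeR, adjusted p = 1.449e-05 and 1.304e-04). Its 95% interval of -1.47 to -0.82 in QKO animals overlapped that of none of the other 8 members, the nearest being H2-T10 at -3.15 to -2.08. It did overlap those of other H2 heavy chains outside the members. These were H2-M3 (-0.70, interval -1.21 to -0.18), H2-Q6 (-1.77, -2.30 to -1.25) and H2-Q5 (-2.40, -3.66 to -1.15), so a small difference was not particular to H2-Q4.

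**Figure D2:**
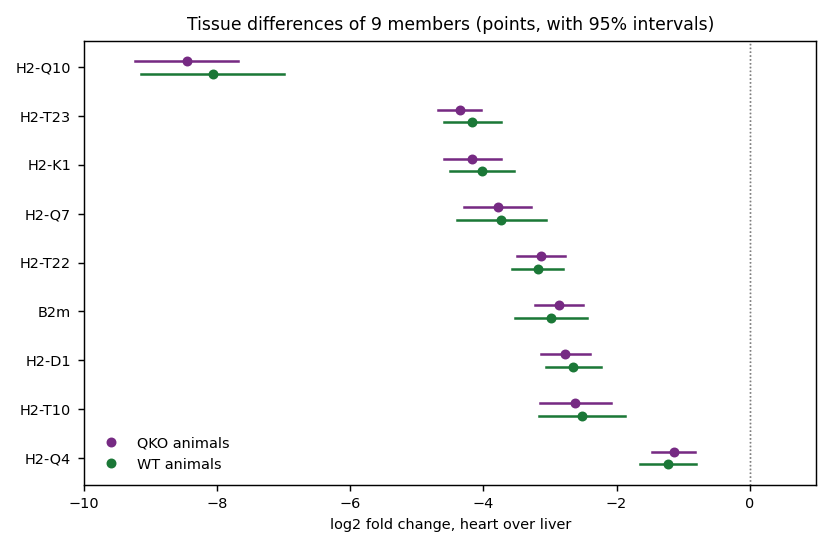
Log2 fold change of heart over liver (x axis) of the 9 members with counts in both tissues, in QKO animals (purple) and WT animals (green), n = 4 each; lines are 95% intervals. All points lie left of 0, H2-Q10 farthest at -8.46 in QKO and H2-Q4 nearest at -1.14 in QKO.

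Class I genes are also carried by cells other than hepatocytes and heart muscle cells, whose markers were summed. Macrophage markers (5 genes, none at 0) summed to 81.6 to 119 per 1 M protein-coding counts in QKO hearts against 374 to 516 in QKO livers, and 96.3 to 157 in WT hearts against 386 to 586 in WT livers. Endothelial markers (4 genes, none at 0) summed to 390.2 to 428 in QKO hearts against 326 to 488 in QKO livers, and 331 to 435 in WT hearts against 264 to 406 in WT livers. This sum joins markers that moved in opposite directions. Stab2, a marker of sinusoidal endothelium, was lower in heart (log2 fold change -6.37 in QKO and -6.12 in WT animals), at 2.2 to 3.33 per 1 M in QKO hearts against 148 to 228 in QKO livers, while Pecam1 (1.58 and 1.59) and Cdh5 (1.44 and 1.53) were higher and Kdr was not called. T cell markers (6 genes, none at 0 throughout a group) summed to 1.53 to 2.08 in QKO hearts against 3.04 to 4.21 in QKO livers, and 0.732 to 2.01 in WT hearts against 2.83 to 5.42 in WT livers. Dendritic cell markers (4 genes, none at 0) summed to 19.4 to 23.5 in QKO hearts against 12.6 to 15.9 in QKO livers, and 18 to 30.2 in WT hearts against 10.9 to 19.8 in WT livers. That sum was mostly Zbtb46, at 16.4 to 22 per 1 M in QKO hearts against 8.95 to 11 in QKO livers, the one of the 4 called higher in heart (0.73 in QKO and 0.69 in WT animals). Flt3 (-1.74 and -1.54) and Itgax (-1.61 and -1.53) were lower in heart in both genotypes, and Xcr1 was lower in WT animals (-1.09) and not called in QKO animals (0.50). The largest part of the macrophage sum in liver was Clec4f, at 207 to 298 per 1 M in QKO livers against 0.497 to 1.34 in QKO hearts. Adgre1, Csf1r and Cd68 were also lower in heart in both genotypes, and Cd163 was not called (-0.24 in QKO and -0.13 in WT animals). Of the T cell markers, Cd3d and Cd3g were lower in heart in both genotypes, and Cd4 was not called (0.39 and -0.32). The part of all these cell types in the tissue difference of the class I genes was not tested.

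Most genes that make class I molecules work were also lower in heart. Of 8 genes for peptide transport and loading, 8 were lower in heart in both genotypes, with Tapbpl, a tapasin-like peptide editor, at -2.19 ± 0.15 log2 in QKO and -2.32 ± 0.16 in WT animals. Calr, a chaperone of the loading complex, was at -1.96 ± 0.13 in QKO and -1.92 ± 0.17 in WT animals, and Erap1, which trims peptides, at -1.62 ± 0.12 in QKO and -1.73 ± 0.15 in WT animals. Tap2, a subunit of the peptide transporter, differed least, at -0.48 ± 0.13 in QKO and -0.42 ± 0.15 in WT animals. Of the 5 immunoproteasome genes, 5 were lower in both genotypes. Over all genes tested, 37.1% were called lower in heart in QKO animals and 36.9% in WT animals. Psmb8, a catalytic subunit, was at -2.46 ± 0.19 in QKO and -2.46 ± 0.21 in WT animals, Psmb9, another one, at -1.68 ± 0.22 in QKO and -2.01 ± 0.25 in WT animals, and Psme2, of the activator cap, at -1.71 ± 0.10 in QKO and -1.79 ± 0.15 in WT animals. The medians of the loading and immunoproteasome lists were -1.59 and -1.79 log2 in WT animals, beside -3.18 for the 9 members tested there.

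Among the regulators of class I transcription, Nlrc5, the transactivator of class I genes, was lower in heart, at 0.217 to 0.398 CPM per kb in QKO hearts against 0.905 to 1.43 in QKO livers, and 0.264 to 0.388 in WT hearts against 0.758 to 1.4 in WT livers. Its log2 fold change was -1.84 ± 0.20 in QKO and -1.85 ± 0.21 in WT animals (edgeR, adjusted p = 2.729e-06 and 1.234e-05). Irf1, an interferon regulatory factor, was at -0.96 in QKO and -1.17 in WT animals. Nfkb1 and Creb1, whose families bind NF-kappaB and cAMP elements, were higher in heart, at 0.53 and 0.34 in QKO and 0.59 and 0.33 in WT animals. The call of Creb1 in QKO animals was lost without any one of QKO livers 1, 2 and 3 and QKO hearts 3 and 4 (0.26 to 0.34). Of the 10 regulators, 5 were lower, 3 higher and 2 not called in QKO animals, and 5 lower, 2 higher and 3 not called in WT animals. Over all genes tested 37.1% were lower and 37.2% higher in QKO animals, and 36.9% lower and 35.6% higher in WT animals, and the regulators' counts are to be read beside these shares. Of 13 interferon response genes, 10 were lower and 1 higher in either genotype. Cxcl10, a chemokine, was at -3.68 in QKO and -3.15 in WT animals, Iigp1, an interferon-induced GTPase, at -3.00 in QKO and -3.15 in WT animals, and Irf7 at -2.71 in QKO and -2.53 in WT animals. Rsad2, which encodes viperin, was the higher one, at 0.98 in QKO and 1.02 in WT animals.

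Other class I heavy chains and class I-like genes spread more widely. Of 19 others of the H2 complex in the table, 8 were tested and 7 lower, among them H2-Q1 (log2 -7.84 ± 0.43 in QKO and -6.91 ± 0.38 in WT animals), H2-Q2 (-5.75 ± 0.77 and -5.41 ± 0.57) and H2-Bl (-5.44 ± 0.57 and -5.65 ± 0.53). H2-T24 was not called, at 0.23 ± 0.16 in QKO animals (95% interval -0.11 to 0.56) and 0.30 ± 0.20 in WT animals (-0.14 to 0.73). Among class I-like genes outside the complex, Azgp1, a secreted lipid-mobilising protein, was at -8.63 in QKO and -8.03 in WT animals, Raet1d, a ligand of NKG2D, at -7.80 in QKO and -8.93 in WT animals, and Cd1d1, which presents lipids to NKT cells, at -6.97 in QKO and -6.78 in WT animals. Mr1, which presents vitamin B metabolites to MAIT cells, was higher in heart (0.74 ± 0.22 in QKO and 0.81 ± 0.32 in WT animals, adjusted p = 0.00861 and 0.0415), as was Ulbp1, another NKG2D ligand (1.53 ± 0.36 and 1.30 ± 0.36). The call of Mr1 in WT animals was lost when any library but WT liver 1 was left out, and without WT livers 3 and 4 its value was 0.31. The receptor Klrk1 (NKG2D) itself was at -2.86 in QKO and -2.96 in WT animals, and Pirb, an inhibitory receptor for class I, at -1.24 in QKO and -0.87 in WT animals. Receptors were called lower in 3 of 4 tested in QKO and 4 of 5 tested in WT animals, of 11 listed. The counts of receptors and of the other H2 genes are to be read beside the shares over all genes tested. These were 37.1% called lower in QKO animals and 36.9% in WT animals.

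**Figure D3:**
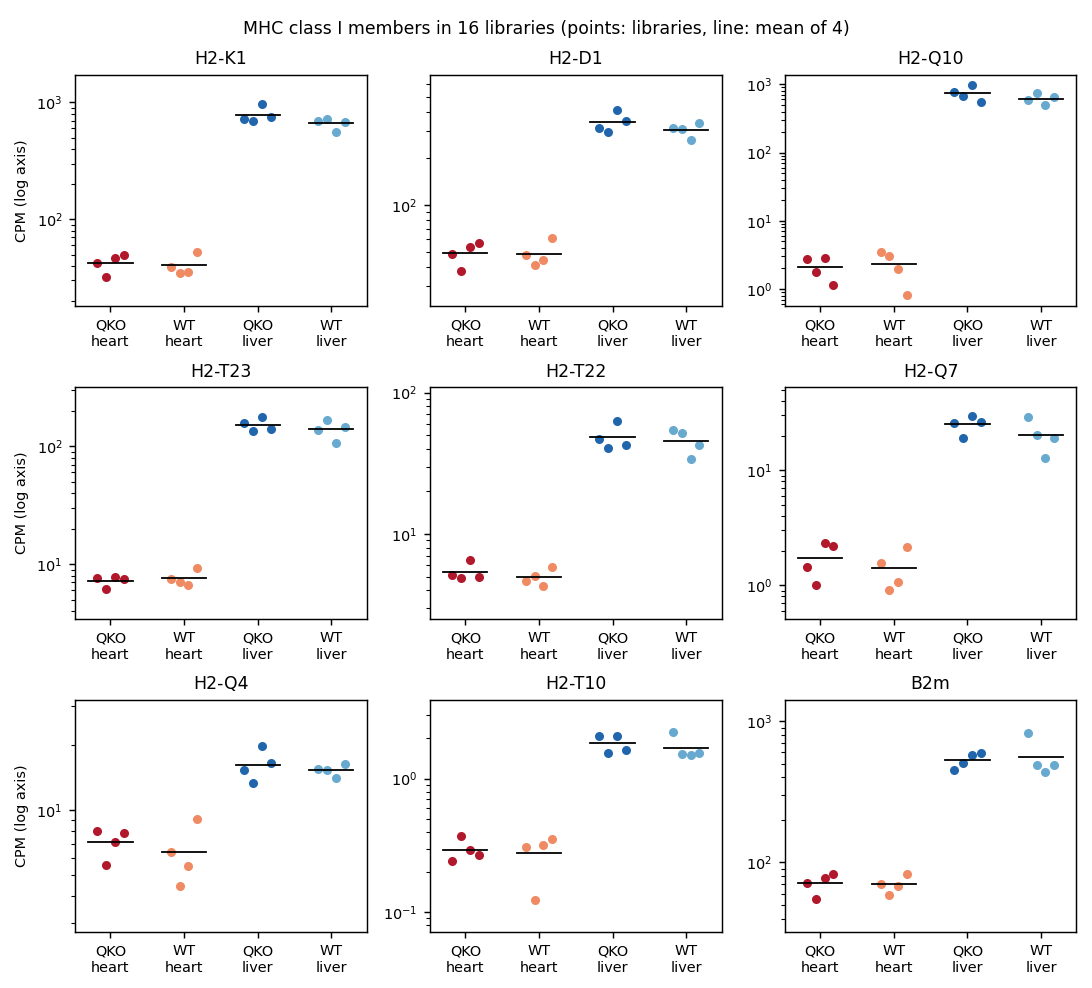
CPM (log axis) of 9 members in the 16 libraries, QKO hearts and WT hearts left of QKO livers and WT livers; points are libraries and lines the mean of 4. QKO and WT points overlap within each tissue for all 9, and heart points lie below liver points.

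In heart, QKO animals were compared with WT animals to ask whether class I RNA differed with the genotype in a tissue that had not drawn attention to the family. None of the 9 members tested was past the threshold in edgeR's test, none had an unadjusted p under 0.05, and DESeq2 called none either, while 0.165% of the 16974 genes tested were called. Log2 fold changes of QKO over WT ran from -0.12 (H2-Q10) to 0.24 (H2-Q7), with a median of 0.02 beside -0.00 over all genes tested, and adjusted p-values from 0.873 to 0.999. H2-K1 differed by 0.06 ± 0.14 (SE, 95% interval -0.24 to 0.36), H2-D1 by 0.02 ± 0.13 (-0.27 to 0.30) and B2m by 0.02 ± 0.12 (-0.23 to 0.28). H2-T22 differed by 0.10 ± 0.13 (-0.17 to 0.38), H2-T23 by -0.10 ± 0.12 (-0.36 to 0.16) and H2-Q4 by 0.13 ± 0.18 (-0.27 to 0.52). The intervals of the low genes were wider, -0.40 to 0.87 for H2-Q7, -0.97 to 0.74 for H2-Q10 and -0.83 to 0.84 for H2-T10. Differences of up to 1.83-fold upward and down to 0.511 of the WT level are within the intervals of the 9. Changes of that size are thus not excluded for the low genes, and a p above the threshold does not show equal levels.

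The QKO and WT heart libraries overlapped for every member. For H2-Q7, the one with the largest value, QKO hearts had 1.43, 1.01, 2.34 and 2.18 CPM against 1.57, 0.912, 1.06 and 2.16 CPM in WT hearts. H2-T22 had 5.16, 4.92, 6.51 and 4.97 CPM in QKO hearts against 4.67, 5.06, 4.31 and 5.81 CPM in WT hearts. H2-T23 had 7.6, 6.1, 7.71 and 7.49 CPM in QKO hearts against 7.53, 7.09, 6.67 and 9.34 CPM in WT hearts. The animal numbers fall into a series beginning with 47 (replicates 1 and 2) and one beginning with 48 (replicates 3 and 4). Within these, H2-K1 stood at 0.01 and 0.12 log2 (QKO over WT), B2m at -0.03 and 0.07, H2-Q7 at -0.03 and 0.49, and H2-Q10 at -0.52 and 0.51, the last with opposite signs. Without the 2 heart libraries numbered 4, which held little ribosomal RNA, the 9 ran from -0.21 to 0.41 and none was called.

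The genes of the pathway around the members gave no call in heart either. Of 48 tested genes of the other class I, loading, immunoproteasome, regulator, receptor and interferon lists, none was called between QKO and WT hearts, and 2 had an unadjusted p under 0.05. Of all 16974 genes tested, 28 were called and 1220 had an unadjusted p under 0.05, and the pathway counts are to be read beside these. Log2 fold changes of the pathway genes ran from -0.53 (H2-Q5) to 0.26 (Psmb9). Nlrc5 was at 0.14 ± 0.20 and Tap1 at 0.13 ± 0.21.

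In liver, the comparison of QKO with WT animals is the one in which H2-T3 was noticed, and its values are a description. The count of H2-T3 was 132, 105, 13 and 69 in the 4 QKO livers against 2, 0, 0 and 1 in the 4 WT livers. Every QKO library lay above every WT library, and QKO liver 3 was far below the other QKO livers. As CPM this was 1.52, 1.29, 0.254 and 0.808 in QKO livers against 0.0409, 0, 0 and 0.0153 in WT livers. Summed counts were 319 in QKO and 3 in WT livers, a ratio of 95.7 per total count (exact 95% interval 32.4 to 466, counting error only), and edgeR's fitted log2 fold change was 6.32 ± 0.83. That value was 7.42 without WT liver 1, 5.85 without WT liver 2 or 3, and 5.88 without WT livers 3 and 4 together. By animal series, the counts were 237 in QKO and 2 in WT livers in the series beginning with 47. In that beginning with 48 they were 82 in QKO and 1 in WT livers. Over the whole table, 0.0564% of 17738 genes tested were called higher in QKO livers, a share given for scale only, since the family was chosen for this comparison. Even in QKO livers its level was low, at rank 10417 of 14678 protein-coding genes, 0.0115% to 0.0887% of the heavy chain RNA.

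H2-T3 had 0 counts in all 8 heart libraries, QKO and WT, with a summed total of 458 M, so heart gave no fold change. A count of 0 allows up to 3 counts, or 0.0135 CPM over the QKO hearts and 0.0127 CPM over the WT hearts, and 0.0413 to 0.0712 CPM in single heart libraries. Ribosomal RNA does not enter totals of protein-coding counts. On these, H2-T3 in the summed QKO livers (2.4 CPM) stood 51.1-fold above the limit of 3 counts taken over the QKO hearts. That ratio is of group sums, leaves out the spread among animals and need not hold for each animal. The 4 QKO livers stood at 3.45, 2.96, 0.57 and 1.91 per 1 M protein-coding counts, and it was the liver values that drew the family. Whether the genotype difference of H2-T3 differs between heart and liver was not tested. TL antigen is known from gut and thymus, and markers of intestinal epithelium (5 genes) summed to 59.4 to 70.5 per 1 M protein-coding counts in QKO livers against 56.3 to 108 in WT livers. Those of T cells (6 genes) summed to 3.04 to 4.21 in QKO livers against 2.83 to 5.42 in WT livers, and the part of such cells in the counts of H2-T3 was not tested. The intestinal sum was nearly all Fabp2, a fatty acid binding protein, at 56 to 66.2 in QKO livers against 52.4 to 102 in WT livers, which was far lower in heart (log2 -8.65 in QKO and -7.77 in WT animals). Cdh17 and Krt20 of that list stood at 0.165 or less in every liver library.

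**Figure D4:**
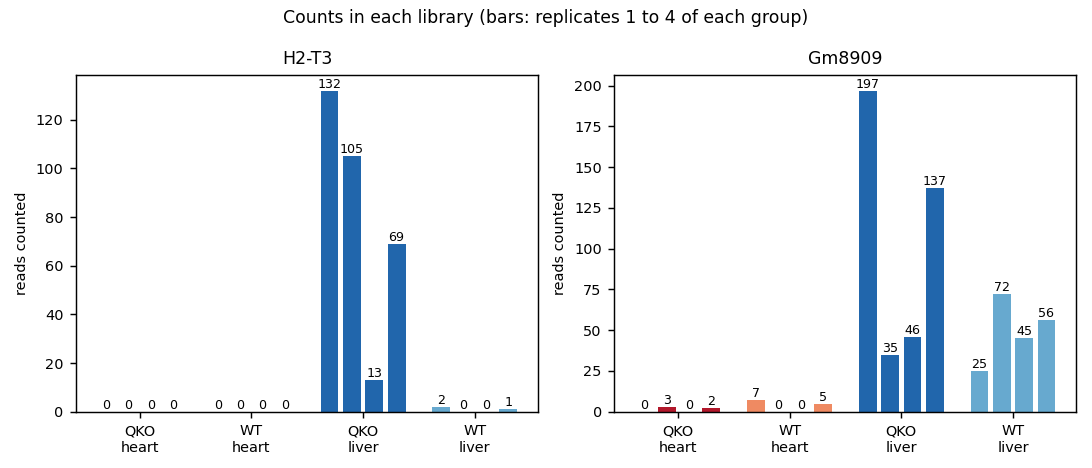
Reads counted for H2-T3 (left) and its neighbour Gm8909 (right) in each library (y axis), with 4 bars per group for replicates 1 to 4. H2-T3 has 13 to 132 reads in the QKO livers, at most 2 in the WT livers and 0 in the hearts, while Gm8909 has 35 to 197 reads in QKO livers and 25 to 72 in WT livers.

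Gene models around H2-T3 lay in either direction in liver. Gm8909, a class I-like gene model 17 kb away, had counts of 197, 35, 46 and 137 in QKO livers against 25, 72, 45 and 56 in WT livers. As CPM this was 2.26, 0.429, 0.897 and 1.6 in QKO livers against 0.511, 0.792, 0.485 and 0.859 in WT livers. QKO livers 1 and 4 lay well above the WT range, QKO liver 3 just above it and QKO liver 2 below it, and the log2 fold change was 0.97 ± 0.44. Gm8835, a pseudogene 11.7 kb away on the other side, had 19, 0, 0 and 24 reads in QKO livers against 1, 1, 0 and 0 in WT livers, so QKO livers 1 and 4 held nearly all its reads, and it was too low to be tested. On the side of Gm8909, 3 pseudogenes that were also not tested went the other way in summed reads. Gm9574, 46.5 kb away, had 17 reads in QKO livers against 111 in WT livers, 99 of them in WT liver 4. Gm10499, 39.6 kb away, had 21 in QKO livers against 120 in WT livers, 118 of them in WT liver 2. Gm17782, 23.5 kb away, had 17 in QKO livers against 99 in WT livers, with 56 in WT liver 3 and 39 in WT liver 4. Reads of these models thus sat mostly in 1 or 2 WT libraries each. Gm7030, 56.1 kb away, was at 0.70 ± 0.44, and H2-T-ps, a pseudogene 73.9 kb away, at 0.61 ± 0.25. Rpp21, a subunit of ribonuclease P 65.4 kb away, was at -0.05 ± 0.18, and Trim39, a ubiquitin ligase 68.6 kb away, at -0.15 ± 0.20. The span of the H2 complex on chromosome 17 was taken from H2-K1 to H2-M2. In liver 135 of its genes were tested, with a median log2 fold change of 0.08. H2-T3, for which the family was chosen, is left out of the calls, and none of the other genes was called. In heart 116 were tested with a median of 0.05, and the 1 called was C4b, a complement gene with a near-identical copy in the region. Between Msrb1 and H2-K1, 185 genes in heart and 194 in liver were tested and 0 were called by edgeR. Over all genes tested, 0.165% were called in heart and 15 of 17738 in liver. The counts of both spans are to be read beside these shares.

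For the other 9 members, QKO livers and WT livers overlapped. H2-K1 differed by 0.23 ± 0.16 log2 (QKO over WT), H2-D1 by 0.15 ± 0.16, H2-Q10 by 0.27 ± 0.20, H2-T23 by 0.12 ± 0.17, H2-T22 by 0.08 ± 0.19, H2-Q7 by 0.31 ± 0.22, H2-Q4 by 0.07 ± 0.14, H2-T10 by 0.11 ± 0.21 and B2m by -0.08 ± 0.21. For H2-Q7 this was 25.7, 19, 29.5 and 26.2 CPM in QKO livers against 28.9, 20.1, 12.9 and 19.1 CPM in WT livers. These values depended on the animals. In the series beginning with 47, H2-Q7 was at -0.13, H2-K1 at -0.01 and B2m at -0.46, and in that beginning with 48 they were at 0.80, 0.47 and 0.34. The 2 WT livers of the series beginning with 48 are those with acinar transcripts, and without them the 9 ran from -0.29 (B2m) to 0.18 (H2-Q10), with H2-Q7 at 0.05. The part of the acinar tissue in the values was not tested.

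**Figure D5:**
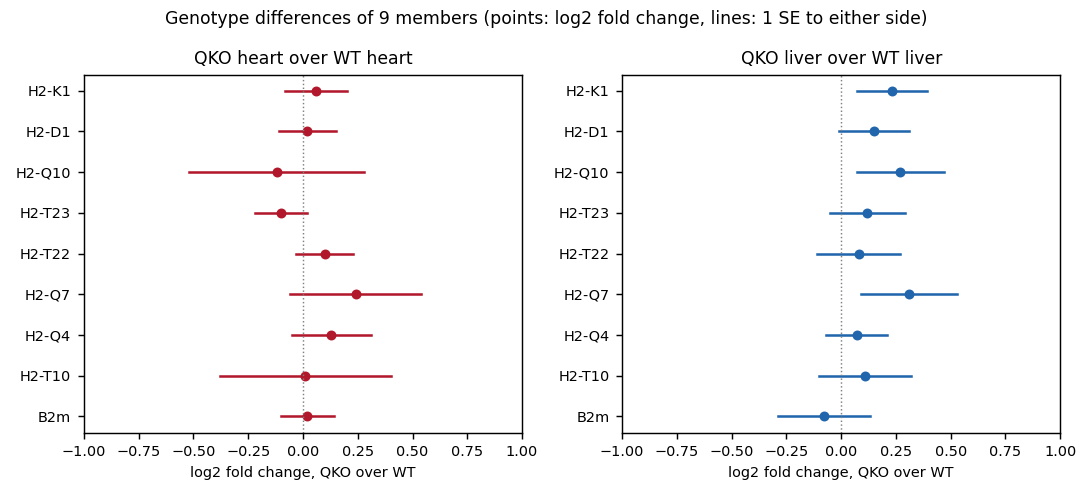
Log2 fold change of QKO over WT (x axis) of 9 members in heart (left) and liver (right), n = 4 each; lines extend 1 SE to either side. Values lie between -0.12 and 0.24 in heart and between -0.08 and 0.31 in liver, and H2-T3, at 6.32 in liver and without counts in heart, is left out.

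Of 62 pathway genes tested in liver, none was called by edgeR, and 2 had an unadjusted p under 0.05. Of all 17738 genes tested, 15 were called and 583 had an unadjusted p under 0.05, and the pathway counts are to be read beside these. Log2 fold changes of the pathway genes, QKO over WT, ran from -1.07 (Klrd1, which encodes CD94) to 0.89 (H60b, a ligand of NKG2D). Nlrc5 was at 0.15 ± 0.20, Tap1 at 0.17 ± 0.16 and Psmb8 at 0.11 ± 0.21.

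Across the 16 libraries, several members varied together once the mean of each group was removed. Pearson's r of log2 CPM with H2-K1 was 0.96 for H2-D1, 0.87 for H2-T23, 0.87 for H2-Q4, 0.86 for H2-Q7, 0.72 for H2-T22 and 0.66 for B2m, but -0.23 for H2-Q10 and -0.36 for H2-T3. Outside the members, the 5 protein-coding genes most like H2-K1 were Cmpk2 (0.89), Gm19426 (0.88), Irf7 (0.87), Zfp740 (0.87) and Psmb5 (0.86). Those most like B2m were Ggh (0.91), Cript (0.90), Clec2d (0.87), Gbp2 (0.87) and Ccng2 (0.85). For H2-T3, with the tissue mean removed, they were Klf9 (0.94), Sash1 (0.93), Dab1 (0.92), Sult2a6 (0.90) and Sult2a4 (0.88), a likeness that includes the genotype difference. These values describe 16 libraries that share depth, scaling and tissue content, and they were picked as the highest among all genes tested.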

How the data were processed

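Per the labels' protocols, a stranded total RNA kit with removal of ribosomal RNA was used, and both ends of fragments were read over 75 bp. The submitters' processing notes name mm10, cutadapt, HISAT2 and featureCounts. The deposited values are raw counts per gene, whole numbers made by the authors for 48709 Ensembl identifiers, of which 48349 matched GENCODE M21 and 360 did not. No column was left unmapped to a library.

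Each comparison was fitted on its 8 libraries with edgeR 4.0.16 (R 4.3.3), using its expression filter, TMM scaling, a quasi-likelihood F test and Benjamini-Hochberg adjustment over all genes, with a threshold of 0.05. SE is the size of the log2 fold change over the root of the F statistic. CPM used TMM-scaled library sizes over all 16 libraries, and CPM per kb divided it by the length of all annotated exons of the gene, merged. Sums of cell type markers were per 1 M protein-coding counts. The fit was tested on simulated counts. DESeq2 1.42.0 was an alternative.

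The members, gene lists and tests were chosen with earlier results of these data known. All members were named, and of each list up to 3 genes per direction called in both tissue comparisons, those at the ends of a range, genes called between genotypes, and gene models within 100 kb of H2-T3 with 10 or more summed counts in a tissue, several of which stand for the rest. C4b was named after its value was seen, as were H2-M3, H2-Q5 and H2-Q6 in the comparison of heart with liver.

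Heart and liver libraries with 1 number come from the same animal, so the tissue comparisons were refitted with the animal as a block (deviations from group means correlated at 0.0642 to 0.237). No replicate pair of a group was a copy, the chi-square per gene being 23.6 or higher.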

Additional observations from a re-analysis of the deposited data

Results flagged for a closer look

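In 4 of 38 sets of 4 libraries (each member with counts in a group), 1 library stood apart from its group by Dixon's 95% criterion for 4 samples. Chance alone flags about 1 in 20 such sets. The values below are the gap to the nearest other library divided by the whole range of the group.

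B2m in WT liver had its highest library, WT liver 1, at 819 CPM against 433 to 492 CPM in the other 3 (0.847). H2-T10 in WT liver was also highest in WT liver 1, at 2.23 CPM against 1.5 to 1.55 CPM (0.932). Neutrophil markers (3 genes, Ly6g at 0) summed to 18.3 per 1 M protein-coding counts in that library against 1.43 to 4.01 in the other 3 WT livers, and their part in the values was not tested. H2-T22 in QKO heart was highest in QKO heart 3, at 6.51 CPM against 4.92 to 5.16 CPM (0.848). H2-T23 in QKO heart was lowest in QKO heart 2, at 6.1 CPM against 7.49 to 7.71 CPM (0.863).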

How the results depend on the processing

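The 9 members other than H2-T3 stayed lower in heart and past the threshold in both genotypes under every alternative in which they were tested. None of the 9 was called between QKO and WT hearts under any alternative. The number of genes called between QKO and WT hearts was 28, and it was 60 with DESeq2, 102 with no filter, 16 with all 16 libraries in 1 fit and 18 to 25 with 1 library left out. Between QKO and WT livers it was 15, and it was 50 with DESeq2, 9 with protein-coding genes only, 44 with all 16 libraries in 1 fit and 12 to 19 with 1 library left out. The share of higher calls was 28.6% in heart with protein-coding genes only, against 42.9% with all genes, and in liver 55.6% with protein-coding genes only and 42% with DESeq2, against 66.7%.

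Same-numbered QKO and WT libraries come from different animals, and their deviations correlated at 0.00432 to 0.382 in heart and -0.157 to 0.0529 in liver. Of 4 pairs, 3 in heart and 0 in liver were over 0.1, and of 8 libraries 5 in heart and 0 in liver correlated best with their own number. As not every pair was over 0.1, the numbers were not taken to pair the animals, although in heart most pairs deviated together. A replicate block called 50 genes in heart, against 28 without it, and 16 in liver, against 15, and with the animal as the replicate block the tissue comparisons called 13240 genes in QKO animals, against 13402 without it, and 13030 in WT animals, against 13202 without it.

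Differences of QKO over WT heart were near 0, and leaving out 1 library turned the sign of 7 members. With 1 library left out, the log2 fold change ran from -0.01 to 0.22 for H2-K1, -0.06 to 0.15 for H2-D1, -0.17 to 0.17 for H2-T10, -0.16 to 0.02 for H2-T23, -0.00 to 0.37 for H2-Q4, -0.47 to 0.20 for H2-Q10 and -0.05 to 0.13 for B2m. H2-T23 was at 0.01 without both heart libraries numbered 4. In liver the sign turned for 3 members with 1 library left out, B2m (-0.17 to 0.16), H2-T22 (-0.08 to 0.17) and H2-Q4 (-0.04 to 0.17). The cause was not tested. RLE scaling moved the median of all genes by less than 0.1 log2 in each comparison. H2-T10 was not in the protein-coding fits. At the depth of the hearts, H2-Q7, H2-Q10 and H2-T10, with 309 to 352, 346 and 54 to 56 summed counts per group, had the widest intervals. Changes within those intervals are not excluded.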
